A study of Mus musculus with 14 samples.

Results

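Fibroblast growth factor 21 (Fgf21) and the hepatic receptor complex of the endocrine FGFs were followed in mouse liver through 3 genes: Fgf21 for the hormone, Klb for the co-receptor beta-Klotho and Fgfr4 for FGF receptor 4. They were chosen by name as ligand, co-receptor and receptor, with earlier results of these data known. Each has 1 probe, so 3 of the 25697 probes of the Illumina MouseRef-8 array and 3 of its 16593 named genes are described. Livers came from 14 male C57Bl/6J mice kept under specific-pathogen-free conditions, 7 on a palatinose diet and 7 on a sucrose diet of equal calories, with 1 array per mouse. Palatinose (isomaltulose) and sucrose are isomers that join the same glucose and fructose by different bonds. The titles give 22 weeks of feeding and the age label reads 18 weeks, and these conflict if mice were that old when sampled. Arrays are named by diet and column code, such as PAL_407_04 (palatinose) and SUC_424_02 (sucrose). Values are log2 intensities after background correction and quantile normalization with an offset of 16. Differences are palatinose minus sucrose.

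FGF21 is a hormone made by hepatocytes and released into blood. It acts on cells that carry beta-Klotho together with an FGF receptor, mainly FGFR1 in fat and brain. In liver, beta-Klotho and FGFR4 form the receptor for the intestinal hormone FGF15, whose signal through ERK lowers bile acid synthesis by repressing Cyp7a1. Hepatic Fgf21 transcription is known to respond to fasting through PPAR alpha, to sugars through ChREBP, and to amino acid shortage and other stresses through ATF4.

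The Fgf21 gene lies on chromosome 7 of GRCm38.p6, at chr7:45613890-45615490. Its promoter is shown because matches to an ATF4/CHOP element and to an E-box can be read in it. The window from 250 bases before to 50 bases after the transcription start, at chr7:45615441-45615740 on the minus strand, is given from RefSeq. Capitals mark, in this order, the match to the ATF4/CHOP element TGATGNAA, which lies on the opposite strand, the E-box CACGTG, and the TATA box TATAAA.
Fgf21 promoter: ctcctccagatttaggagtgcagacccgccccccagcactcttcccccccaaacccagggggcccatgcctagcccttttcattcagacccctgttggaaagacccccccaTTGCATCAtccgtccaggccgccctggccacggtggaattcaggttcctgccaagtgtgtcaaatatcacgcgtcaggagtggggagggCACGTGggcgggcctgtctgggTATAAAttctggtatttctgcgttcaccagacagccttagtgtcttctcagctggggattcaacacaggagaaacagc
The ATF4/CHOP match began 139 bases before the start, the E-box 50 bases and the TATA box 28 bases before it. Both strands were searched. The ATF4/CHOP letters occurred in 3.97% of 32851 mouse promoter windows of the same length, the E-box letters in 7.15%, TATAAA in 13.6%, and the E-box and the ATF4/CHOP element together in 0.201%. The PPAR direct repeat (DR1), found in 0.04% of windows, and the LRH-1 element CAAGGTCA, found in 1.56%, had no match in this window. The windows of Klb (gene at chr5:65348411-65386957) and Fgfr4 (gene at chr13:55152818-55168759) held none of these 5 motifs. A match describes the letters and does not show a bound site.

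Fgf21 was measured above background in every liver and varied widely among mice on the same diet. Its log2 intensity in the palatinose livers was 9.35 in PAL_407_04, 9.28 in PAL_429_03, 8.90 in PAL_430_01, 8.20 in PAL_417_03, 8.15 in PAL_417_02, 8.04 in PAL_418_07 and 7.76 in PAL_430_04. In the sucrose livers it was 9.32 in SUC_421_03, 9.04 in SUC_408_02, 8.59 in SUC_423_04, 8.40 in SUC_411_03, 7.75 in SUC_415_02, 7.66 in SUC_417_01 and 7.53 in SUC_424_02. The groups overlapped over almost their whole range, and both held high and low mice. On this scale, with the offset included, the highest liver was 3.02 times the lowest with palatinose and 3.46 times the lowest with sucrose. The pooled standard deviation within diets, 0.67, was larger than that of 99.2% of the 8829 features tested.

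Mean Fgf21 differed between the diets by less than the spread among mice. The hormone transcript averaged 8.53 ± 0.64 with palatinose and 8.33 ± 0.71 with sucrose (SD, n = 7 each), and its medians were 8.20 and 8.40. The difference was 0.20 with a 95% confidence interval of -0.45 to 0.86 (limma, adjusted p = 0.899), or 1.15-fold with an interval of 0.73 to 1.81. Only 3 of 7 palatinose livers lay above the sucrose mean. The array reads the whole liver, so fewer expressing cells and less RNA per cell cannot be told apart. Deviation from the diet median averaged 0.513 with palatinose and 0.573 with sucrose (exact permutation test, two-sided, p = 0.788, adjusted over the 3 genes 0.863).

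Klb had lower values in the palatinose livers, by a margin that did not pass the adjusted test. It measured 7.24 in PAL_407_04, 7.10 in PAL_429_03, 6.99 in PAL_417_03, 6.95 in PAL_418_07, 6.89 in PAL_430_01, 6.88 in PAL_417_02 and 6.78 in PAL_430_04. With sucrose it measured 7.78 in SUC_424_02, 7.22 in SUC_421_03, 7.20 in SUC_415_02, 7.19 in SUC_423_04, 7.18 in SUC_411_03, 7.17 in SUC_408_02 and 6.93 in SUC_417_01. The 5 middle sucrose livers lay close together, 1 stood far above them, and the groups overlapped. The means were 6.98 ± 0.15 with palatinose and 7.24 ± 0.26 with sucrose (SD, n = 7 each). The difference was -0.26 (95% confidence interval -0.49 to -0.03; limma, adjusted p = 0.681), or 0.834-fold with an interval of 0.711 to 0.977. An exact permutation test of this 1 gene, chosen after seeing the data, gave p = 0.0245, two-sided and unadjusted. It is therefore no independent evidence of a difference. In all, 0 of 8829 features (0%) passed at an adjusted p under 0.05, 627 (7.1%) had an unadjusted p under 0.05, and 296 (3.35%) had it with lower values under palatinose. Klb was 1 of 2 tested members with an unadjusted p under 0.05, and no member passed the adjusted test. Some arrays share a number in their column names within or across diets: PAL_417_02, PAL_417_03 and SUC_417_01, and also PAL_430_01 and PAL_430_04. The consensus correlation within a number was 0.362, and it rests on these arrays, as no others share one. With that number as a random block the Klb difference was -0.21, and its unadjusted limma p was over 0.05, as it also was with median scaling and without PAL_430_04. Without SUC_424_02 the Klb difference was -0.17 (adjusted p = 0.683). Within-diet deviations averaged 0.112 with palatinose and 0.132 with sucrose (exact permutation p = 0.863).

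Fgfr4 was not above background by its probe in most livers. Its detection p-value was under 0.05 on 0 of 7 palatinose arrays and 2 of 7 sucrose arrays, SUC_411_03 and SUC_421_03. Deposited intensities ran from 1 to 6 with palatinose and from 3 to 10 with sucrose. The normalized values were 4.40 ± 0.07 with palatinose and 4.53 ± 0.13 with sucrose (SD, n = 7 each), where the lowest value of a detected probe on an array was 4.55 to 4.67. Both means lay below that level, so no fold or difference is read from them, and the gene was left out of the filtered fit. In a fit of 18312 features without the filter Fgfr4 had an adjusted p of 0.810 (limma), where 1 feature (0.00546%) passed and 1084 (5.92%) had an unadjusted p under 0.05. Probes for other genes of hepatocytes also read near background here: Alb, for serum albumin, was detected on 4 arrays with a highest intensity of 31, and Fabp1, for the liver fatty acid binding protein, on 0. A probe at background therefore gave no measure of how abundant Fgfr4 mRNA was.

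**Figure D1:**
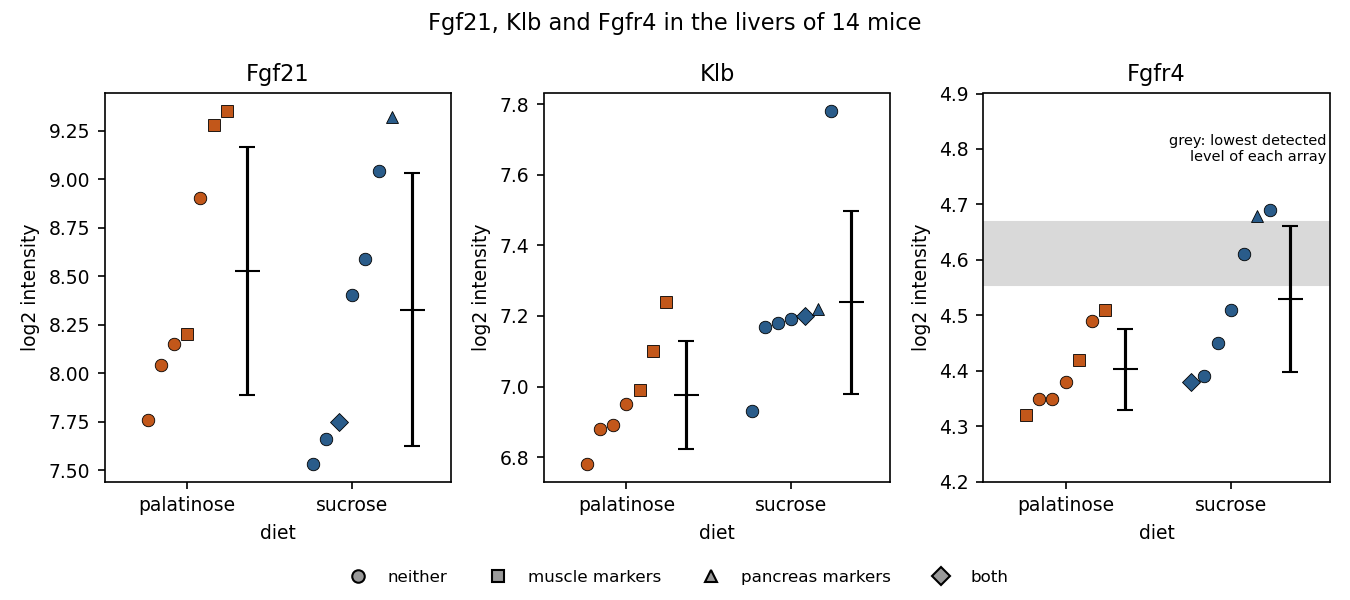
Log2 intensity (vertical axes) of Fgf21, Klb and Fgfr4 in each mouse, palatinose left and sucrose right, with bars at mean ± SD (n = 7 each). Symbol shape marks arrays that also carried muscle or pancreas transcripts, and the grey band spans 4.55 to 4.67, the lowest detected level per array; Fgf21 spreads widely in both diets, 6 of 7 palatinose Klb values lie below the sucrose mean, and only 2 detected Fgfr4 values, both with sucrose, lie above the band.

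Transcripts of other tissues were present on 5 arrays. Of 15 skeletal muscle markers, 14 were detected on PAL_407_04, 10 on PAL_417_03, 15 on PAL_429_03 and 14 on SUC_415_02, and at most 1 on any other array. Of 14 pancreas acinar markers, 14 were detected on SUC_415_02 and 10 on SUC_421_03, and 2 or 3 on the others, with hepatocyte markers at 6 or 7 of 9 everywhere. The 3 highest Fgf21 values, in PAL_407_04, SUC_421_03 and PAL_429_03, were all on these arrays, while SUC_415_02, which had both tissues, was low. Without the 5 arrays the Fgf21 difference was -0.03, with means of 8.23 ± 0.49 (n = 4, palatinose) and 8.26 ± 0.64 (n = 5, sucrose) and an adjusted p of 0.978 (limma). The Klb difference was -0.38 (6.89 ± 0.07 with palatinose and 7.27 ± 0.32 with sucrose, adjusted p = 0.421), so it was as large without them. SUC_424_02, with the highest Klb and the lowest normalized Fgf21, also stood apart in all features: its mean intensity was 256.8 against 190.2 to 214.9 on the other arrays. Before normalization its Fgf21 intensity, 216, was not the lowest: SUC_417_01 had 174, PAL_430_04 205 and SUC_415_02 208. Without SUC_424_02 and the 5 arrays with other tissues the difference was -0.21 for Fgf21 and -0.24 for Klb (adjusted p = 0.347).

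**Figure D2:**
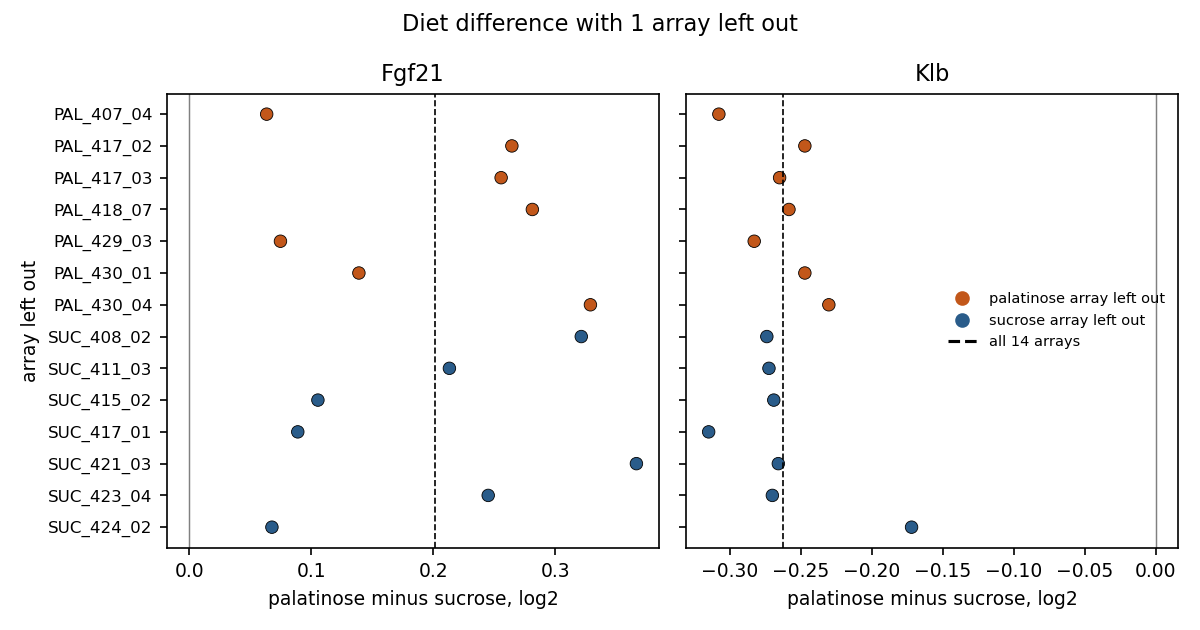
The palatinose minus sucrose difference in log2 (horizontal axes) of Fgf21 and Klb when the array named on the vertical axis is left out, with dashed lines at the value from all 14 arrays. Fgf21 runs from 0.06 without PAL_407_04 to 0.37 without SUC_421_03, and Klb from -0.32 without SUC_417_01 to -0.17 without SUC_424_02.

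Ligand and co-receptor were compared across mice. Over 14 livers the correlation of Fgf21 and Klb was r = -0.001 (permutation p = 0.997) with rho = 0.231 (p = 0.428), adjusted over 3 pairs 0.997 and 0.428. Among palatinose livers r was 0.798 (exact permutation p = 0.0274, adjusted over 6 within-diet values 0.164), and among sucrose livers -0.26 (exact p = 0.648). The palatinose livers with muscle transcripts, PAL_407_04, PAL_429_03 and PAL_417_03, had the highest Klb of that diet. Its highest Fgf21 values were in PAL_407_04 and PAL_429_03. Whether the muscle transcripts bear on this r was not tested. The difference between the diets in r was 1.06 (exact permutation p = 0.204). The pooled value was 0.550 without SUC_424_02 and -0.17 without the arrays with muscle or pancreas transcripts. Without the 2 arrays farthest from the median of Fgf21 it was -0.16. From values mostly at background, Fgfr4 gave r = 0.299 with Fgf21 (permutation p = 0.297; rho = 0.340, p = 0.235). It gave r = 0.097 with Klb (permutation p = 0.746; rho = 0.251, p = 0.382). Adjusted p-values were at least 0.428 for both pairs, and r was 0.200 and 0.282 without the 2 arrays farthest in Fgf21 and in Klb.

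**Figure D3:**
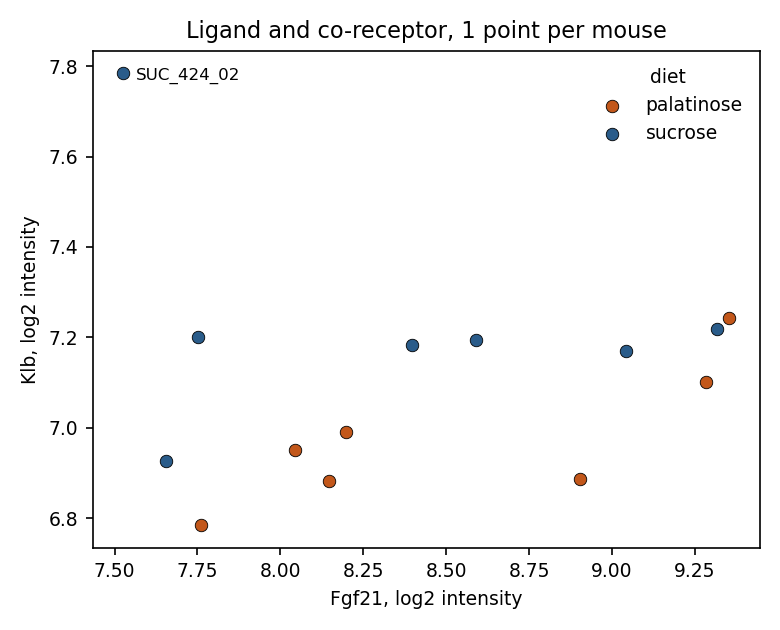
Klb against Fgf21, both as log2 intensity, with 1 point per mouse and the diets in colour. Among palatinose livers r is 0.798 (exact permutation test, adjusted p = 0.164), and PAL_430_01 has high Fgf21 (8.90) with low Klb (6.89). Sucrose livers other than SUC_424_02 lie between 6.93 and 7.22 for Klb, and the pooled correlation is near 0. Among palatinose livers the highest Klb values are in PAL_407_04, PAL_429_03 and PAL_417_03, which carried muscle transcripts.

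Fgf21 was then set beside genes that mark the routes by which it is regulated. Of 36 listed pairs of a member and a single gene, which were not chosen independently of earlier results of these data, 32 were measured, 16 of them with Fgf21. 1 pair passed by Pearson correlation and 2 passed by Spearman, after adjustment over the 32: Pklr by both and Asns by Spearman. Pklr, for liver pyruvate kinase and a target of ChREBP, ran opposite to Fgf21 (r = -0.79, permutation p = 0.00143, adjusted 0.0458; rho = -0.82, adjusted 0.0176). It was opposite in both diets, with r of -0.69 among palatinose and -0.87 among sucrose livers, and at -0.73 without the 2 farthest arrays. The adjusted Pearson p ran from 0.0253 to 0.112 with 1 array left out, and stayed under 0.05 in 5 of 14 such sets: those without PAL_417_02, PAL_417_03, PAL_430_01, SUC_408_02 or SUC_411_03. The 3 livers with the highest Fgf21, PAL_407_04, SUC_421_03 and PAL_429_03, had Pklr at 5.50, 5.46 and 5.49, while the 3 lowest, SUC_424_02, SUC_417_01 and SUC_415_02, had 6.31, 6.12 and 6.29. Another kept Pklr probe gave r = -0.49, and one detected on 0 arrays gave 0.003. Without the 5 arrays with other tissues r was -0.68 (adjusted p = 0.318, exact permutation, n = 9). Other listed genes of the ChREBP route did not run opposite to Fgf21. Mlxipl, for ChREBP itself, gave r = 0.440 and its target Txnip 0.082 (adjusted permutation p = 0.370 and 0.93).

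Asns, for asparagine synthetase and a target of ATF4, ran with Fgf21 (r = 0.671, adjusted permutation p = 0.0559; rho = 0.760, adjusted 0.0381), with r of 0.636 among palatinose and 0.744 among sucrose livers, and 0.642 without the 2 farthest arrays. Asns was highest in SUC_408_02, at 7.87, and 5.02 to 6.19 in the 4 other livers with Fgf21 above 8.8. Without the 5 arrays r was 0.822 (adjusted p = 0.0224, exact permutation, n = 9). With 1 array left out, the adjusted permutation p of the Asns r ran from 0.0272 to 0.121, under 0.05 in 3 of 14 sets. This Asns probe was detected on 12 of 14 arrays, with a lowest deposited intensity of 4. Other Asns probes, detected on 1 and 3 arrays, gave r of 0.485 and 0.411 with Fgf21. Thrsp, a lipogenic gene induced by carbohydrate, gave r = -0.71 (adjusted permutation p = 0.0559; rho = -0.68, adjusted 0.0926), and -0.52 without the 5 arrays (exact permutation, adjusted 0.624, n = 9). Igfbp1, for an IGF-binding protein raised in fasting, gave r = 0.567 (adjusted permutation p = 0.235; rho = 0.648, adjusted 0.115). Its r was 0.378 among palatinose and 0.764 among sucrose livers. The Igfbp1 probe was detected on 11 of 14 arrays, with a lowest deposited intensity of 2. Ppara gave r = 0.237 and Ddit3, for CHOP, 0.125, neither past the test (adjusted permutation p = 0.687 and 0.873). Trib3, listed with Asns as a stress response target, had the opposite sign, at r = -0.48 (adjusted permutation p = 0.370). Atf4 itself gave r = 0.307 (adjusted permutation p = 0.567), with 0.69 among palatinose and -0.03 among sucrose livers. The 16 pairs of Klb and Fgfr4 with bile acid and ERK genes had r from -0.31 to 0.523. Their lowest adjusted permutation p was 0.303 by Pearson and 0.156 by Spearman. The 8 pairs with Fgfr4 rest on values mostly at background, so they cannot show whether a relation exists. Within-diet r values differed between diets at an unadjusted exact p under 0.05 for 4 of the 32 pairs, with the lowest adjusted p at 0.242.

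**Figure D4:**
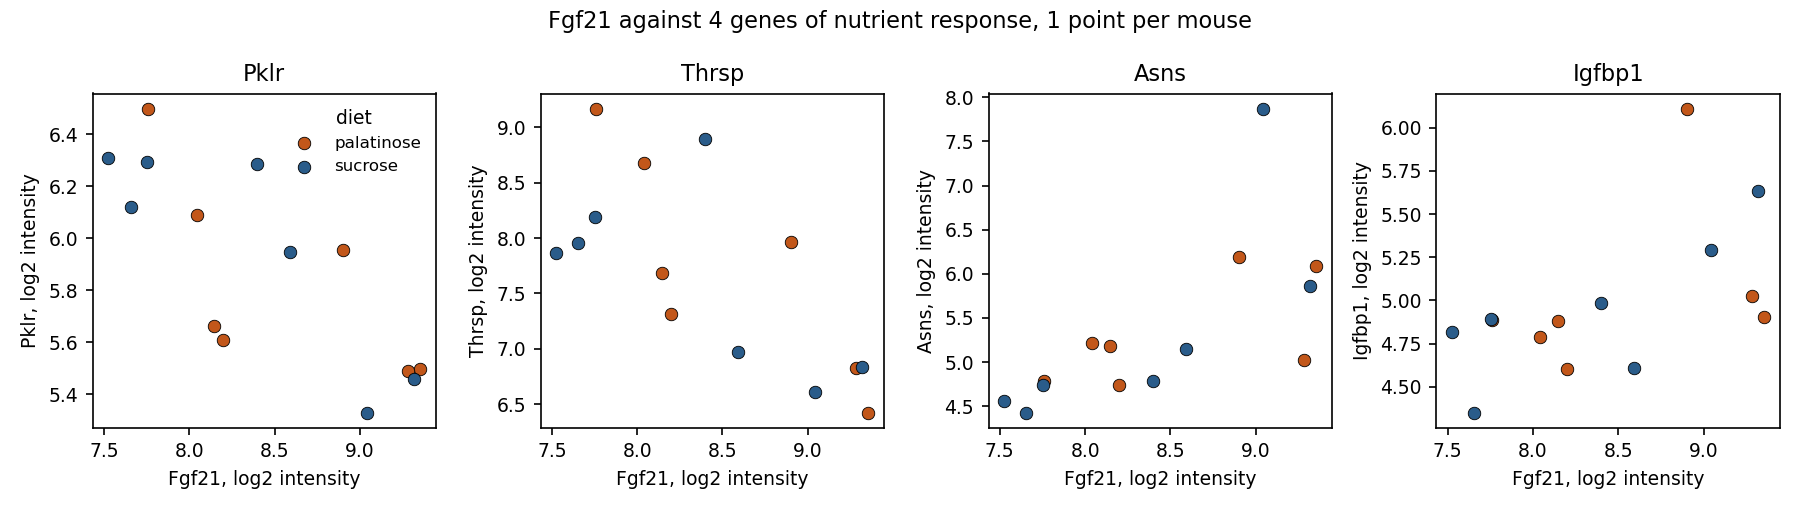
Pklr, Thrsp, Asns and Igfbp1 (vertical axes) against Fgf21 (horizontal axes), all log2 intensity, 1 point per mouse. Pklr (r = -0.79) and Thrsp (r = -0.71) run opposite to Fgf21, and Asns (r = 0.671) and Igfbp1 (r = 0.567) run with it. Each sign is the same within both diets, but Igfbp1 has only r = 0.378 among palatinose livers.

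The genes most like Fgf21 and Klb were ranked among 8145 by the lowest correlation over all sets of 13 arrays, as a description with no test. Fgfr4, mostly at background, was not ranked. The 14 points share their arrays and tissue makeup. For Fgf21 they were Abcb4, the phospholipid transporter of bile (r = 0.867, rho 0.846), Pxmp4 (0.857), Aff4 (0.845), Tab2 (0.839) and Ercc5 (0.814). Those running opposite were Per3, of the circadian clock (-0.89), Cyp2a5 (-0.89) and Rhbdl1 (-0.87). Per3 was dim: its lowest values, 4.29 with palatinose and 4.46 with sucrose, lay below the lowest detected level of 4.55 to 4.67. Each of these 8 genes kept its direction in both diets, which choosing them on the same arrays favours. Their diet differences lay between -0.13 and 0.13. For Klb the closest were Cnih4 (0.943), Txndc15 (0.860), Dcaf17 (0.942), Lsm14a (0.942) and Slc12a2 (0.934), and the opposite ones were Stx17 (-0.95), Atg101 (-0.95) and Pex11g (-0.85). The diet differences of the 5 genes like Klb were -0.37 to -0.15, a direction that choosing them on the same arrays favours.

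Among the other ligands and receptors no gene passed the test. Of 9 FGF ligand genes, 2 were measured, Fgf21 and Fgf1, a paracrine FGF, which gave -0.25 (limma, adjusted p = 0.722). Fgf15, made in the ileum, was detected on 6 arrays and missed the filter. Of 13 receptor and co-receptor genes 10 were measured. Apart from Klb these were 5 higher and 4 lower in palatinose, 0 called, with a median difference of 0.005 against 0.01 for all features, of which 54.8% were above 0. Fgfr2 gave -0.13, Fgfr3 0.01, and the glypicans Gpc1 and Gpc4 gave 0.20 and 0.08. Fgfr1, the main partner of FGF21 in fat, was detected on 0 arrays.

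The ERK pathway below the receptor was read through 2 lists. Of the 10 measured signalling genes 6 were higher and 4 lower in palatinose livers, 0 called, with a median of 0.03, and Grb2, the adaptor, gave 0.11. Of 7 measured feedback genes and targets, 3 were higher and 4 lower, 0 called. Spred1, an inhibitor of this pathway, had 6.29 to 6.76 with a median of 6.51 in palatinose livers and 6.53 to 7.31 with a median of 6.83 in sucrose livers, a difference of -0.32 (limma, adjusted p = 0.678). Etv5 and Ier3, both induced by ERK, gave -0.20 and 0.18 (adjusted p = 0.696 each). The list had a median of -0.07, and 1 member had an unadjusted p under 0.05 with higher and 2 with lower values, where 3.75% and 3.35% of all features did.

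Of 10 measured genes of bile acid synthesis, its regulators and bile acid transport, 3 were higher and 7 lower in palatinose livers, 0 called, with a median of -0.07. Most of these are not themselves known targets of the Klb and FGFR4 complex. Cyp7a1, its known target and the rate-limiting enzyme of bile acid synthesis, ran from 9.20 to 10.4 with a median of 10.1 in palatinose livers and from 9.42 to 10.9 with a median of 10.1 in sucrose livers. The groups overlapped and differed by -0.05 (95% confidence interval -0.53 to 0.42; limma, adjusted p = 0.964), and this sign turns under some settings. Cyp8b1, of cholic acid synthesis, gave 0.06, and Cyp7b1, of the alternative pathway, -0.29. Nr1h4, for the bile acid receptor FXR, gave -0.11 and Nr5a2, for LRH-1, -0.15. Nr0b2, for the repressor SHP, was detected on 0 arrays.

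**Figure D5:**
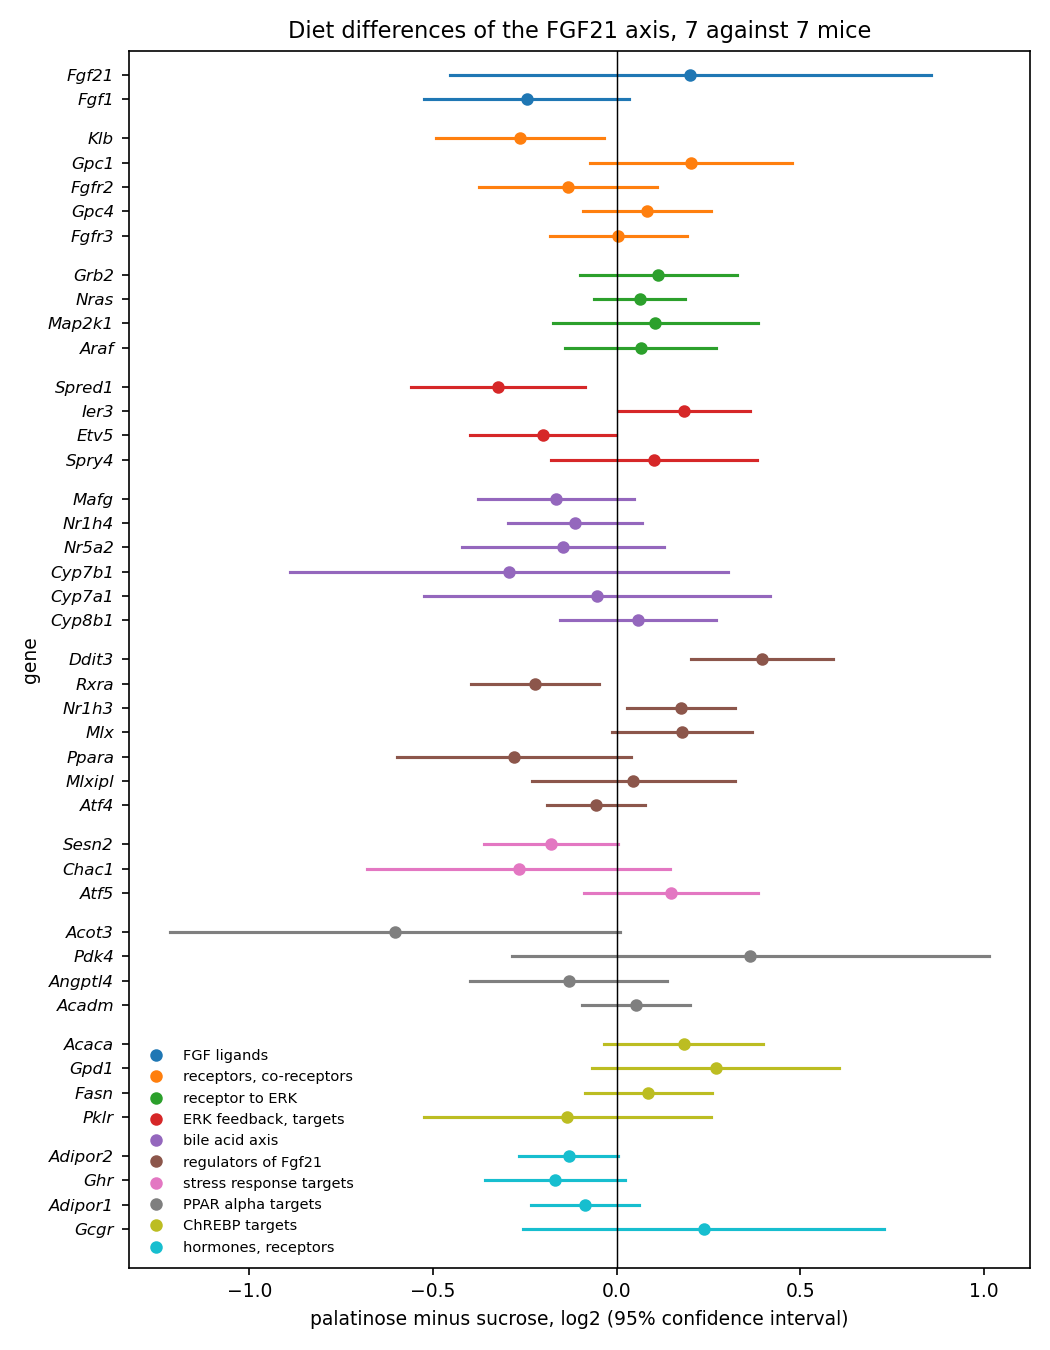
Palatinose minus sucrose difference in log2 with its 95% confidence interval (horizontal axis) for the named genes of each list (vertical axis), coloured by list. Of these genes 0 passed the adjusted test. The intervals of Ddit3 (0.20 to 0.59), Spred1 (-0.56 to -0.09) and Klb (-0.49 to -0.03) are among the 7 that lie to 1 side of 0. The genes of smallest p in each list are among those drawn, a choice that favours such intervals. Of all 8829 features, 627 (7.1%) had an unadjusted limma p under 0.05.

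Genes that regulate Fgf21 and its companion targets were measured in 4 lists. Of 18 measured transcription factors, 8 were higher and 10 lower in palatinose livers, 0 called, with a median of -0.05. Ddit3, for the stress factor CHOP, ran from 6.00 to 6.34 with palatinose (median 6.16) and from 5.49 to 5.97 with sucrose (median 5.82). Its groups did not overlap, as for 11 features (0.125%) in all, and differed by 0.40 (95% confidence interval 0.20 to 0.59; limma, adjusted p = 0.485). Another Ddit3 probe gave 0.33. Ppara gave -0.28 (adjusted p = 0.722), Rxra, its dimer partner, -0.22 (0.678), Mlxipl, for ChREBP, 0.05 and Atf4 -0.06. Nr1h3, for LXR alpha, gave 0.18 by its brighter probe and -0.24 by another.

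Targets of these factors gave no call. Of 12 measured stress response targets 6 were higher and 6 lower with palatinose (median 0.00), where Ddit3, also on this list, gave 0.40, Atf5 0.15, Chac1 -0.27 and Sesn2 -0.18. Of 9 targets of PPAR alpha 3 were higher and 6 lower (median -0.05), where Acot3, a peroxisomal thioesterase, gave -0.60 (95% confidence interval -1.22 to 0.01; limma, adjusted p = 0.699) and Pdk4, which spares glucose, 0.36. Of 13 targets of ChREBP 7 were higher and 6 lower (median 0.01), where Gpd1 gave 0.27, Acaca, of fatty acid synthesis, 0.18, Fasn 0.09 and Pklr -0.13. Of 6 measured hormone-related genes 2 were higher and 4 lower (median -0.06), where the adiponectin receptor Adipor2 gave -0.13, the growth hormone receptor Ghr -0.17 and the glucagon receptor Gcgr 0.24. The signs of Fgfr3, Araf, Spry4, Cyp7a1, Cyp8b1, Nr1h3, Mlxipl, Acadm, Pklr and Gcgr turned under at least 1 alternative setting.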

How the data were processed

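The authors deposited a table of probe intensity on a linear scale with a detection p-value per probe and array, per the file headers, and a table of normalized intensity. The software and normalization were not given in the sources used here. Per the labels' protocols, RNA was purified on columns with DNase and biotin-labelled. Intensities below 0, at 23.0% to 26.4% per array, show that background had been subtracted. The number of arrays limits precision.

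Intensities were processed with neqc of limma 3.58.1 in R 4.3.3, with an offset of 16. Probes with a detection p-value under 0.05 on at least 7 of 14 arrays were kept (11628), and the brightest probe per gene was used, giving 8829 features. Diets were compared with lmFit and eBayes and Benjamini-Hochberg adjustment, two-sided, without covariates. Correlations used permutation tests of 100000 resamples in Python 3.11.15, exact within diets and in sets of under 10 arrays. Motifs were searched in RefSeq windows of GRCm38.p6.

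Named genes were the members, up to 4 genes of smallest p per list and a fixed set of receptors and regulators. Likeness to a member was ranked by the lowest leave-one-out r. The members and lists were chosen with earlier results of these data known. Fasn, Grb2 and other dim probes are drawn toward 0 by the offset. The labels do not say whether replicate numbers shared by the diets pair mice. Over all features the same-numbered pairs correlated at -0.192 to 0.166, with 3 of 7 over 0.1. Weak correlations of this kind cannot exclude a pairing. Alternatives covered background, normalization, the authors' values, offset, filter, eBayes, weights, probes, blocks and left-out arrays, of which leaving out SUC_424_02 together with the arrays of other tissues, the exact tests of the diet difference, and all alternatives for the single-gene relations were chosen after seeing the data. Slides were not known, so slide could not be tested as a batch.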

Additional observations from a re-analysis of the deposited data

Results flagged for a closer look

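Among 88 groups of 7 values, 9 had a highest or lowest array set apart from the others, by a gap past the critical value of Dixon's test. Chance flags about 1 in 20 groups, or 4.4 of these. SUC_424_02 accounted for 5: it was highest among sucrose livers for Klb (7.78, next 7.22) and lowest for Araf (9.54), Mlxipl (9.47, next 10.1), Acaca (8.44, next 8.76) and Gcgr (8.46). Among palatinose livers, PAL_418_07 was lowest for Fgfr2 (4.42, next 4.89), PAL_430_01 was highest for Fgfr3 (5.81, next 5.56) and lowest for Nr1h4 (10.53, next 10.93), and PAL_417_02 was lowest for Mlx (5.29, next 5.56).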

How the results depend on the processing

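Over 28 alternatives the Fgf21 difference ran from -0.21 to 0.37 and that of Klb from -0.38 to -0.17, with 0 adjusted p under 0.05 for either. The cause of the changes below was not tested. The 9-array set leaves out the arrays with muscle or pancreas transcripts, and the 8-array set also SUC_424_02. Fgf21 turned to -0.0304 with 9 arrays and -0.21 with 8. Leaving out 1 array gave 0.0633 to 0.366 for Fgf21, furthest from the full value without PAL_407_04 (0.06), SUC_424_02 (0.07), PAL_429_03 (0.07), SUC_417_01 (0.09), SUC_415_02 (0.11), SUC_408_02 (0.32), PAL_430_04 (0.33) and SUC_421_03 (0.37). The exact permutation test of Klb alone (-0.263), chosen after seeing the data, had an unadjusted p under 0.05. Without the filter 1 feature was called, against 0. With the replicate number as a block, on the authors' values, Fgf21 was 0.20 and Klb -0.27 (adjusted p = 0.697 each), and 0 were called. The unadjusted limma p of Fgf21 was 0.0565 with this block and 0.527 without it on the same values. For Klb it was 0.0576 with the column code as a random block, 0.0598 with median scaling and 0.0584 without PAL_430_04. Pooled r of Fgf21 and Klb was 0.011 with loess and 0.0021 on the authors' values. The r of this pair was -0.169 with 9 arrays, 0.574 with 8 arrays, and -0.126 to 0.550 with 1 array left out. That of Fgf21 and Fgfr4 was -0.0324 with 8 arrays. That of Klb and Fgfr4 was -0.0634 with median scaling and -0.0071 to 0.386 with 1 array left out. The spread difference of Fgf21 was 0.0167 with median scaling and -0.167 to 0.0247 with 1 array left out, and that of Klb -0.0509 to 0.0558. Single-gene relations past the test numbered 1, against 0 with loess, median scaling, averaged probes or 8 arrays, 2 on the authors' values and 0 to 3 with 1 array left out. Of 41 named genes other than the members, 10 turned sign. With array weights Fgfr3 was -0.0286, Araf -0.0161, Cyp7a1 0.103 and Mlxipl -0.0296. With 9 arrays Spry4 was -0.0009, Cyp7a1 0.147, Cyp8b1 -0.0137, Mlxipl -0.0153 and Pklr 0.0537. With 8 arrays Araf was -0.0513, Cyp7a1 0.218, Cyp8b1 -0.0506, Mlxipl -0.159 and Pklr 0.131. Acadm was -0.0151 with loess, -0.017 with median scaling and -0.0583 with averaged probes, and Nr1h3 -0.0324 with averaged probes. Fgfr3 was -0.0031 with median scaling and -0.009 with the column code as a block. With 1 array left out, Fgfr3 ran from -0.0469 to 0.0473, Araf from -0.018 to 0.102, Cyp7a1 from -0.159 to 0.0863, Cyp8b1 from -0.0175 to 0.103, Mlxipl from -0.0603 to 0.115 and Gcgr from -0.0188 to 0.302.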
